A study of Mus musculus with 192 samples.

Results

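HTT-634 and HTT-486 are small interfering RNAs (siRNAs) that were given together to zQ175 mice at 6 months of age, and the hippocampus was collected at 10 months, a regimen labelled 6[4]10. Huntington's disease is caused by an expanded CAG repeat in the huntingtin gene, and zQ175 mice carry such an expanded repeat in their own Htt gene. Here the 8 zQ175 mice that received the pair are compared with the 8 untreated zQ175 mice of the same regimen across all genes, 16 of the 192 mice in the series. Each group held 4 females and 4 males of 10 months, and both carried the zQ175 allele. The other groups of the regimen that appear below are zQ175 mice given a non-targeting siRNA (NTC), zQ175 mice given HTT-10150, untreated wild-type (WT) mice and WT mice given the pair, each with 8 mice of the same ages. The other regimens are 2[4]6, with treatment at 2 months and collection at 6 months, and 2.6[8]10, with treatment at 2 and 6 months and collection at 10 months. The labels do not give the number of alleles that carry the expansion, the length of the repeat, or the dose and route of the siRNAs. Untreated mice differed from treated mice in the procedure as well as in the siRNA, and these cannot be told apart in this comparison alone, so values of the NTC group are set beside the results.

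Htt yields the full-length messenger RNA and, with an expanded repeat, also a short transcript called HTT1a that ends early within the first intron and encodes a small, aggregation-prone fragment of the protein. HTT-10150 is an siRNA against full-length huntingtin, while the HTT-634 and HTT-486 pair addresses HTT1a. Microglia are the resident phagocytes of the brain. When they respond to injury, protein aggregates or foreign nucleic acid they raise genes for phagocytic receptors, lysosomal proteins and complement, and lower part of the set that marks their resting state.

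All values come from polyA-selected RNA sequencing of whole hippocampus, so fewer cells of a type and less RNA per cell cannot be told apart. Levels are given as CPM, counts scaled to the library total, which are not corrected for gene length and so are compared between mice and not between genes. Library totals ranged from 14228487 to 41269383 counts in untreated and from 14999391 to 32934350 counts in treated zQ175 mice. Markers of the dentate gyrus, CA1 and CA3 with CA2 were present in both groups, with median summed levels of 917 against 913, 853 against 841 and 702 against 711 CPM in untreated against treated mice. Choroid plexus, a tissue that lines the ventricles beside the hippocampus, contributed unequally. Its marker Ttr passed 1000 CPM in 2 untreated libraries (female 1 and male 1) and 3 treated libraries (females 1 and 2 and male 4), and the summed choroid markers ranged from 275 to 5662 CPM (median 311) in untreated and from 239 to 7291 CPM (median 563) in treated mice. None of the 12 tested choroid markers passed the test, all 12 changes were positive, and none was at 0 in all libraries. The part of this tissue in the results was not tested. For all genes and for the microglia, complement and antigen presentation lists, counts are given below with the mean of the choroid markers as a covariate. Counts are also given with and without the libraries rich in Ttr. For the counts without them, all 12 libraries of the regimen above 1000 CPM were left out of the fit, those 5 among them.

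Htt itself, at chromosome 5, 34761740 to 34912534 (GRCm38), was measured at 128 to 167 CPM (median 158.8) in untreated and 119 to 145.6 CPM (median 134.5) in treated zQ175 mice. The ranges overlapped because 1 untreated library, male 2, stood at 128 CPM, while the other untreated libraries were at 149.2 CPM or more. The mean log2 level was 0.19 lower after the pair, that is, the level fell by 12.6%, and an exact two-sided permutation test over the 12870 splits of the 16 mice gave p = 0.00482. In the fit across all genes the change was -0.20 ± 0.13 (SE; adjusted p = 0.39), so Htt was not among the genes called there. NTC-treated zQ175 mice had 122 to 165 CPM (median 138), which overlaps both groups. This median lay nearer to that of mice given the pair than to that of untreated mice, and Htt was not called against NTC. In WT mice Htt was at 173.9 to 203.6 CPM without treatment and 144.7 to 215.2 CPM after the pair. The permutation test compared treated with untreated zQ175 mice only. Its p therefore does not separate the pair from the procedure or from a non-targeting siRNA. For comparison, HTT-10150 lowered Htt by 0.82 on the log2 scale against the same untreated mice (edgeR adjusted p = 0.000855). The deposited table lists a further Htt entry with the suffix HD, whose extent is not stated in the sources used here. It had 41 reads in the untreated zQ175 group, with reads in 7 of 8 libraries, 9 reads in the treated group, with reads in 4 of 8, 19 reads in the NTC group and 0 in both WT groups.

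Across the genome, 638 of 16374 tested genes were called changed between treated and untreated zQ175 mice (3.9%), 139 raised (0.849%) and 499 lowered (3.05%). A gene is called here at a Benjamini-Hochberg adjusted p under 0.05 in the quasi-likelihood test of edgeR, and changes are log2 differences, treated minus untreated, with their standard error. Most changes were small: the median size was 0.27 for raised and 0.18 for lowered genes, 33 genes changed at least 1.5-fold and 8 at least 2-fold. Of the 33 genes, 25 were raised, and of the 8, 7 were raised. Lowered genes were abundant, with a median level of 6.43 log2 CPM against 4.20 over all tested genes, while raised genes had a median of 3.97. Of the 5 libraries rich in Ttr among the 16, 3 are treated. The fit without the 12 such libraries of the regimen compared 5 treated with 6 untreated zQ175 mice. It called 44 genes (12 raised), 42 of them among the 638. The share called ranged from 0.907% without treated female 2 to 7.95% without treated male 4, so its size rests on single libraries.

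**Figure D1:**
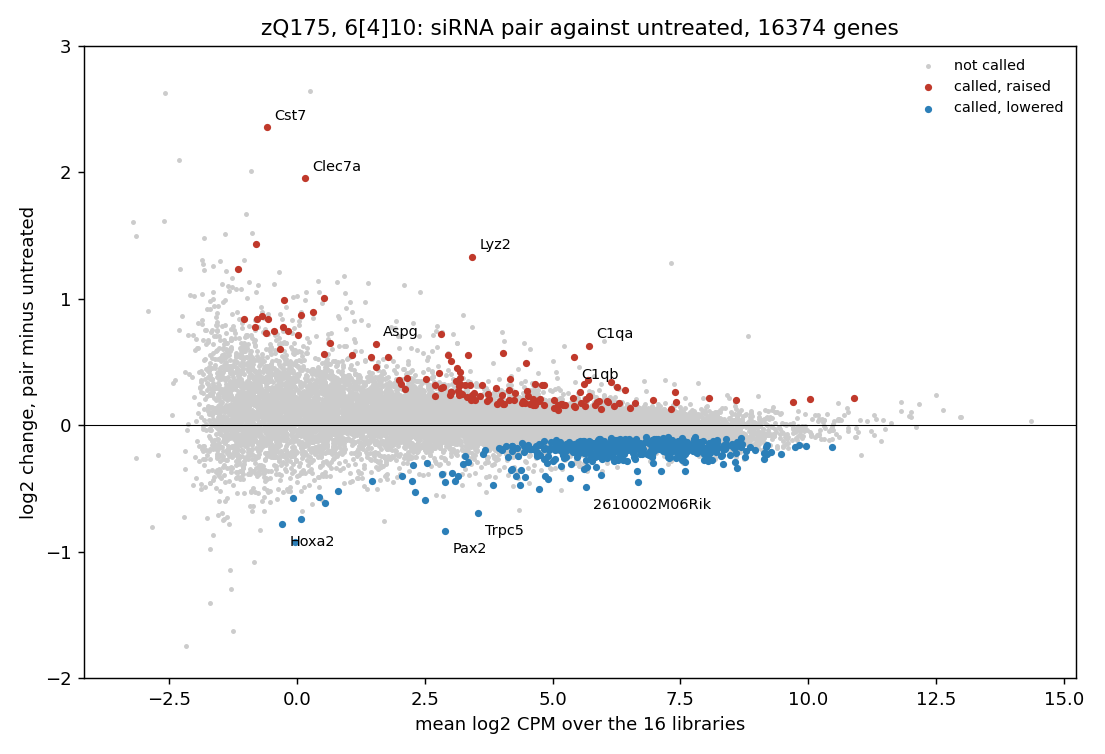
Log2 change (treated minus untreated zQ175, y axis) against mean level (log2 CPM, x axis) for every tested gene, with raised calls in red, lowered calls in blue and other genes in grey. The 499 lowered genes lie mostly at high levels with small changes, the 139 raised genes reach larger changes at low levels, and Gh (-8.25) and Gm3500 (4.22) lie outside the y axis.

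Genes of activated microglia were raised. Of 15 tested members of that list, 7 rose and 0 fell (46.7% called, against 3.9% of all genes), 14 of 15 changes were positive, and the median change was 0.38 against 0.02 over all genes. The 7 were Clec7a, Cst7, Cd68, Lag3, Cd9, Gpnmb and Apoe. The promoters of the 2 members with the largest changes, Cst7 and Clec7a, and of Lyz2, a further microglial gene and the most raised called gene at a mean of at least 1 log2 CPM, are taken from RefSeq on GRCm38.p6 and give the sequence around the start of members that rose together. Each runs 5′ to 3′ on the strand of the gene, from 250 bases before to 50 bases after the start, and capitals mark GAGGAA or its reverse complement TTCCTC, the purine-rich box bound by the myeloid factor PU.1. Shorter motifs of other ETS factors were not searched. Clec7a lies on the minus strand (chr6:129472730-129473029), Cst7 on the plus strand (chr2:150570165-150570464) and Lyz2 on the minus strand (chr10:117282223-117282522).
Clec7a: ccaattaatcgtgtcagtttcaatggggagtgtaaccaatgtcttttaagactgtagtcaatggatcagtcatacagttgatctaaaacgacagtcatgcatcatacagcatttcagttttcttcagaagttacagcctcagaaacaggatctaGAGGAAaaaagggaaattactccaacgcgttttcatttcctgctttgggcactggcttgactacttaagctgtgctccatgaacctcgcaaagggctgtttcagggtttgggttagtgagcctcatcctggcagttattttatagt
Cst7: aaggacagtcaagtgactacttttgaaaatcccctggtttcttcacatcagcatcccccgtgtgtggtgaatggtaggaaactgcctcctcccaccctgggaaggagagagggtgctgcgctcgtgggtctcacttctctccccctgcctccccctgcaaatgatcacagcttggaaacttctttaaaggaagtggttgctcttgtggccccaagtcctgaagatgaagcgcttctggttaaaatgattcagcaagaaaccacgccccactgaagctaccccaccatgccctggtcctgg
Lyz2: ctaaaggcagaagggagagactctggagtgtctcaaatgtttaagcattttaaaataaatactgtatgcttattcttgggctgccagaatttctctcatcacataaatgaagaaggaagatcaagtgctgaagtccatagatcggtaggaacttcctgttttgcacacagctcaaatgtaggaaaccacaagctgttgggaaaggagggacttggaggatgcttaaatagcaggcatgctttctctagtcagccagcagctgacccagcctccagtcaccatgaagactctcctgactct

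GAGGAA occurred once in the Clec7a window, and neither form was in those of Cst7 and Lyz2. Of 11 raised microglial and complement genes looked up, 8 had a promoter in the table and 4 of these held either form, whereas 9289 of all 32851 windows did (28.3%). A match is a description of the letters, not a binding site.

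Clec7a encodes Dectin-1, a phagocytic receptor for beta-glucans, and is annotated at chromosome 6, 129461591 to 129472779. It was at 0.236 to 0.923 CPM (median 0.507) in untreated and 1.17 to 3.12 CPM (median 1.98) in treated zQ175 mice. All 8 treated mice lay above all 8 untreated mice, and the change was 1.96 ± 0.31 (3.88-fold, adjusted p = 0.000175). NTC-treated mice had 0.442 to 1.04 CPM (median 0.802), all below every mouse that received the pair. Cst7, which encodes cystatin F, an inhibitor of lysosomal cysteine proteases, went from a median of 0.206 CPM (0.0586 to 0.777) to 1.49 CPM (0.715 to 2.18). Its groups met at 1 mouse, with 7 of 8 treated mice above all untreated ones, and the change was 2.36 ± 0.53 (adjusted p = 0.00909). Lyz2, the lysozyme of macrophages and microglia, was at 4.83 to 10.3 CPM (median 6.37) in untreated and 13 to 26.4 CPM (median 16.6) in treated mice. The groups did not overlap, and the change was 1.33 ± 0.25 (2.52-fold, adjusted p = 0.00232). Where groups are said to separate, here and below, the genes were named from the same libraries, so the separation adds no support.

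The other members of the list moved less. Cd68, a lysosomal membrane glycoprotein of phagocytes, rose by 0.56 ± 0.13 (adjusted p = 0.013), from 5.26 to 8.36 CPM in untreated to 6.50 to 11.1 CPM in treated mice, with 6 treated mice above all untreated ones. Lag3, an inhibitory receptor, rose by 0.50, Gpnmb, a transmembrane glycoprotein of phagocytes, by 0.46, and Cd9, a tetraspanin, by 0.35. Apoe, the main lipid carrier of the brain, was abundant, at 1674 to 1897 CPM in untreated and 1823 to 2519 CPM in treated mice, and rose by 0.22 ± 0.06 (adjusted p = 0.038). Lgals3 (0.63), Itgax (0.88), Tlr2 (0.38), Spp1 (0.31) and Ctsd (0.24) were positive but did not pass. Axl (0.05) and Lpl (0.01) barely changed, and Ccl6 was the member with a negative value (-0.26). Without the libraries rich in Ttr the count of raised members was 1, Clec7a (1.89, adjusted p = 0.0213), with 14 of 15 changes still positive and a median of 0.29. With the mean of choroid markers as a covariate it was 5, with 14 of 15 changes positive and a median of 0.28. The count went down to 4 without treated female 1, treated female 2 or untreated male 3.

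Markers of resting microglia divided. Of 18 tested, 2 rose and 3 fell (27.8% called, against 3.9% of all genes). Csf1r, the receptor for the growth factors that maintain microglia, was at 87.8 to 108 CPM (median 97.2) in untreated and 74.7 to 92.3 CPM (median 78.3) in treated mice. Its level was below that of every untreated mouse in 7 of 8 treated mice, and it fell by 0.28 ± 0.05 (adjusted p = 0.0023), while in NTC mice it stayed between 88.7 and 100.3 CPM. Fcrls, an Fc receptor-like surface protein, and Tgfbr1, a receptor for TGF-beta, fell by 0.34 and 0.18. Fcrls was at 15.9 to 24.2 CPM in untreated and 13.9 to 21.2 CPM in treated mice. In NTC mice it was at 14.2 to 21.2 CPM, nearly the range of treated mice. Tyrobp, the signalling adaptor of Trem2, rose by 0.56 ± 0.13 (adjusted p = 0.012), and Ctss, the lysosomal protease cathepsin S, by 0.35. Trem2 (0.37, adjusted p = 0.059), P2ry12 (-0.07) and Tmem119 (-0.17) did not pass. The summed level of the 18 markers covered nearly the same range in both groups, 554 to 656 CPM in untreated and 536 to 627 CPM in treated mice. Without the libraries rich in Ttr only Csf1r among them was called, while with the mean of choroid markers as a covariate 2 rose and 3 fell. The count of lowered markers went from 1 (without treated female 1, female 2 or male 3, or untreated male 3) to 7 (without treated male 4).

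**Figure D2:**
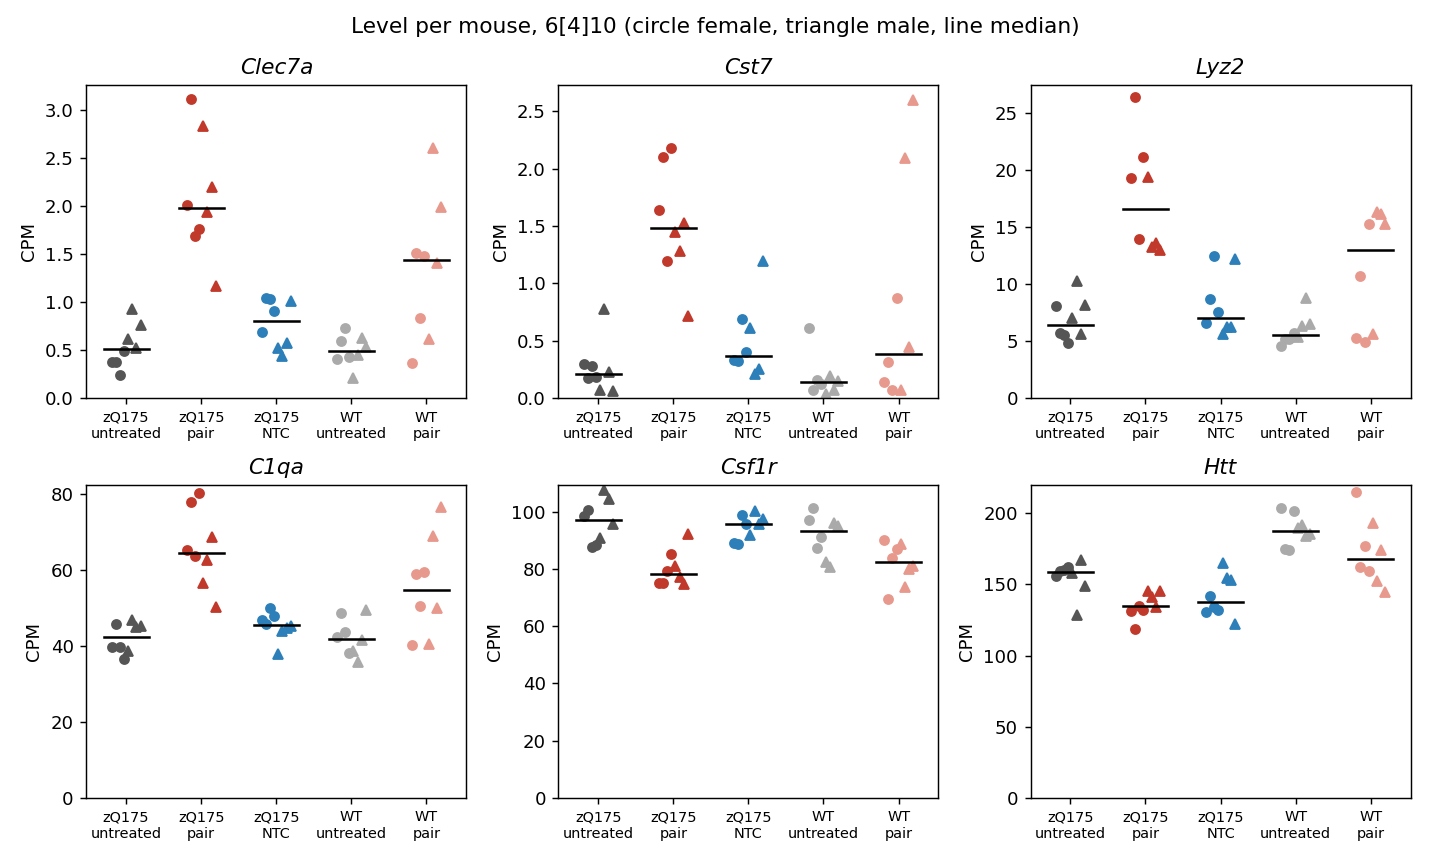
Level per mouse (CPM, linear y axis from 0) of Clec7a, Cst7, Lyz2, C1qa, Csf1r and Htt in 5 groups of the 6[4]10 regimen (x axis), with circles for females, triangles for males and a line at the group median (n = 8 each). For Clec7a, Lyz2 and C1qa every treated zQ175 mouse lies above every untreated zQ175 mouse, and for Csf1r 7 of 8 lie below. These libraries also made the calls, so the separation adds no support.

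C1q, which starts the classical complement pathway and tags synapses and debris for microglia, moved the same way. C1qa (chromosome 4, 136895917 to 136898803) was at 36.5 to 46.9 CPM (median 42.4) in untreated and 50.2 to 80.3 CPM (median 64.4) in treated zQ175 mice. C1qb, its neighbour at 136880129 to 136886187, was at 31.5 to 39.7 CPM (median 34.9) and 39.9 to 59.6 CPM (median 51.8). In neither gene did the groups overlap, although the lowest treated mouse for C1qb, male 4, lay within 1 CPM of the highest untreated one. The changes were 0.63 ± 0.11 (1.55-fold, adjusted p = 0.00184) and 0.54 ± 0.10 (1.46-fold, adjusted p = 0.00231). C1qc, the third chain, had a change of 0.35 with an adjusted p of 0.053. These 2 were the members that passed among 15 tested complement genes (13.3%, against 3.9% of all genes). Of the 15, 12 had positive changes (median 0.32), where 54.99% of all tested genes did, and both passed without the libraries rich in Ttr, where the list median was 0.14. The complement count was 2 with the mean of choroid markers as a covariate, where the list median was 0.13. Leaving out treated male 4 or untreated male 2 raised the count to 4.

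H2-D1, a class I molecule, rose by 0.32 ± 0.10 and its partner B2m by 0.30 ± 0.09, the 2 that passed of 15 antigen presentation genes (13.3%, against 3.9% of all genes), with adjusted p of 0.049 and 0.0496. Both lay at the threshold. The count was 0 without the libraries rich in Ttr, and 0 with the mean of choroid markers as a covariate. It was also 0 without any 1 of 13 of the 16 libraries, and 4 without treated male 4 or untreated male 2. Aspg, an asparaginase listed among genes of reactive astrocytes, rose by 0.65 ± 0.13 (adjusted p = 0.0051), from 1.73 to 2.96 CPM in untreated to 2.99 to 4.10 CPM in treated mice, without overlap. It was the 1 call of 14 genes in that list. Gfap, the intermediate filament that marks reactive astrocytes, had a change of 0.23 with an adjusted p of 0.08. None of 16 general astrocyte markers, 24 interferon-stimulated genes, 17 sensors of foreign RNA and DNA or 16 genes of the small RNA machinery passed, with list medians of 0.13 for interferon-stimulated genes and -0.03 for the small RNA machinery.

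**Figure D3:**
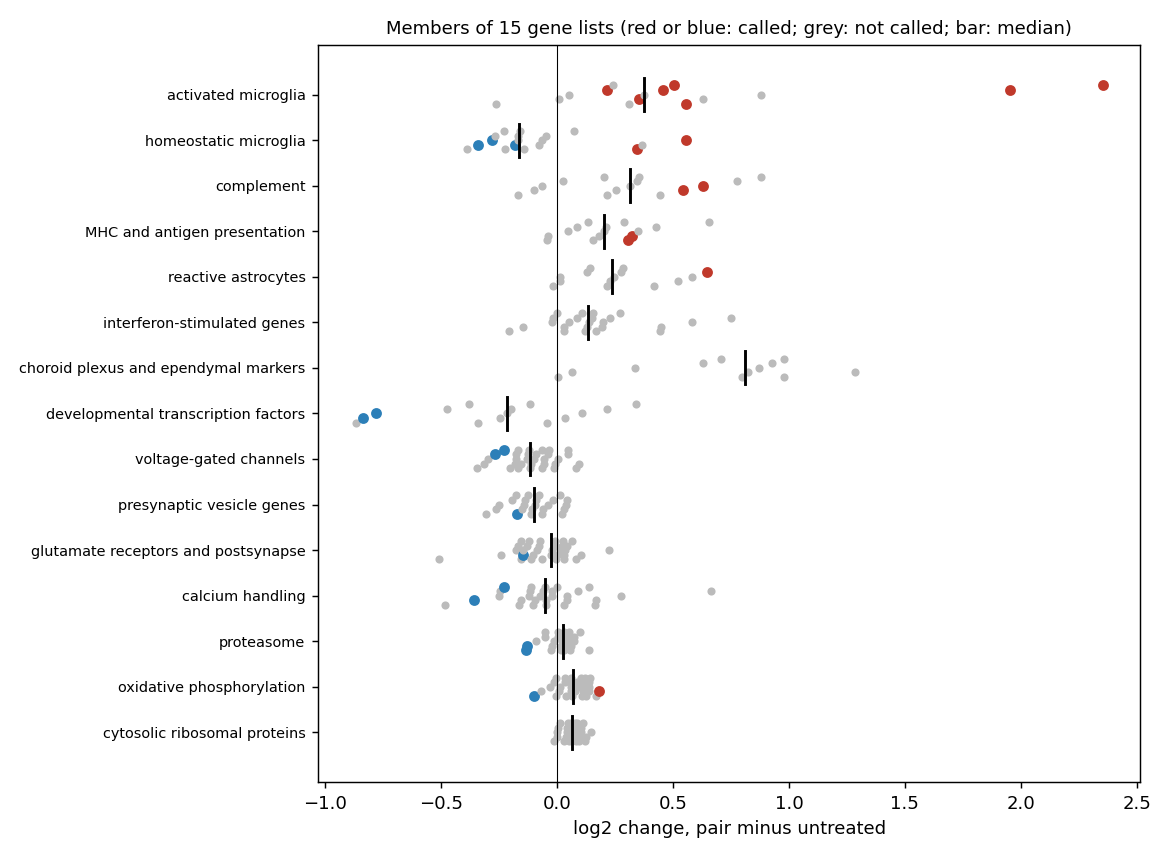
Log2 change (treated minus untreated zQ175, x axis) of each tested member of 15 gene lists (y axis), 1 point per gene, with called genes in red (raised) or blue (lowered), other genes in grey and the list median as a bar. Activated microglia stand at a median of 0.38 with 7 of 15 called, and choroid plexus markers at 0.81 with 0 of 12 called.

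The 10 most raised genes at a mean of at least 1 log2 CPM were Lyz2, Ighm, Aspg, C1qa, Col6a1, Cd68, Rbpms2, Tyrobp, Gm12758 and C1qb. Ighm, the heavy chain of immunoglobulin M, rose by 0.72 ± 0.21, but 1 treated library, female 1, stood at 26.6 CPM against 5.23 to 10.1 CPM in the other 7 and 4.53 to 7.41 CPM in untreated mice. Col6a1, a collagen chain of fibroblasts and vessel walls, rose by 0.57 ± 0.17, Rbpms2, an RNA-binding protein, by 0.56 ± 0.15, and Gm12758 by 0.54 ± 0.15. Ighm lost its call in 15 and Col6a1 in 20 of 28 alternatives, and both lost it without the libraries rich in Ttr. Rbpms2 and Gm12758 lost theirs in 6 alternatives each, without treated female 2 and without untreated male 3 among them. Summed meningeal fibroblast markers ranged from 246.5 to 702 CPM (median 303) in untreated and from 262 to 896 CPM (median 440) in treated mice, with a median change of 0.33 over 11 markers, 0 of them called and none at 0 in all libraries. The part of that tissue in these values was not tested. A further 5 raised genes, chosen after their values were seen, are known from myeloid cells or complement: Cd72 (1.43 ± 0.38), Cd52 (1.0 ± 0.22), Slamf9 (0.87 ± 0.20), Ncf4 (0.78 ± 0.23) and the complement protease gene C1s1 (0.90 ± 0.27). Slamf9 was at 0.475 to 0.985 CPM in untreated and 1.16 to 1.81 CPM in treated mice, without overlap.

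The genes with the smallest p-values were mostly lowered, and they were looked up for that reason after the values were seen. 2610002M06Rik, at chromosome X, 107782751 to 107816334, was at 55.3 to 62.9 CPM (median 59.9) in untreated and 36.5 to 54.9 CPM (median 40.9) in treated zQ175 mice. All treated mice lay below all untreated mice, and the change was -0.49 ± 0.07 (0.713-fold, adjusted p = 1.32e-05). NTC mice had 56.6 to 61.4 CPM and a change of -0.01, and HTT-10150 a change of -0.05 against the same untreated mice. 0610010F05Rik behaved in the same manner, at 37.4 to 43.2 CPM in untreated, 28.7 to 37.3 CPM in treated and 37.1 to 45.8 CPM in NTC mice, with a fall of 0.33 ± 0.05 (adjusted p = 0.000155). Isca1, which takes part in the assembly of iron-sulfur clusters, fell by 0.20 ± 0.03. Rnf6, a ubiquitin ligase, fell by 0.22 ± 0.04, and Tsnax, the partner of translin in an RNA-processing nuclease, by 0.14 ± 0.03. Rab9b, a small GTPase of the route from endosomes to the Golgi, fell by 0.40 ± 0.07, and Camkk2, a kinase upstream of CaM kinases and AMPK, by 0.36 ± 0.07. In each of these 7 genes every treated mouse was below every untreated mouse. Genes picked for small p-values in the same libraries tend to separate in this way, so the separation adds no support. The share of all genes without overlap was not counted.

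The 10 most lowered genes at a mean of at least 1 log2 CPM were Pax2, Trpc5, Samd5, Sema3a, Epha6, 2610002M06Rik, Klhl11, Chrna7, Add2 and Zdhhc23. Trpc5, a calcium-permeable cation channel of hippocampal neurons, went from 9.35 to 17.7 CPM (median 15.5) to 6.47 to 11.7 CPM (median 9.21), a fall of 0.69 ± 0.17 (adjusted p = 0.019). Chrna7, the alpha7 subunit of the nicotinic acetylcholine receptor, went from a median of 17.3 to 11.9 CPM and fell by 0.47 ± 0.12 (adjusted p = 0.017). In both genes the groups overlapped through untreated male 2, which was lower than every other untreated mouse. Sema3a, a secreted axon repellent, fell by 0.53 ± 0.16, and Epha6, an ephrin receptor, by 0.50 ± 0.14. Add2, a subunit of the adducin membrane skeleton, fell by 0.45 ± 0.12 and Zdhhc23, a palmitoyltransferase, by 0.44 ± 0.12. In NTC mice Trpc5 was at 8.95 to 16.6 CPM (median 10.2) and Chrna7 at 9.63 to 18.1 CPM (median 13.5), which overlaps both groups. Against NTC as the reference, 2610002M06Rik was called (-0.47) and the other 9 were not, with changes of -0.17 (Zdhhc23) to -0.45 (Pax2). Of these 10 genes, 2610002M06Rik was the 1 called without the libraries rich in Ttr. Leaving out treated female 2 ended the call of Trpc5, Samd5, Sema3a, Epha6, Klhl11, Chrna7, Add2 and Zdhhc23, and leaving out treated male 3 ended those of the same genes other than Chrna7.

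Lists of ion channel, synapse and calcium genes had small negative medians and at most 2 calls each, where 3.05% of all genes were lowered. The medians were -0.10 for presynaptic, -0.03 for glutamate receptor and scaffold and -0.05 for calcium signalling genes. For NTC against the same untreated mice they were negative too, at -0.06, -0.05 and -0.04. Of 32 voltage-gated channel genes 2 fell and 27 had negative changes (median -0.12), and NTC against the same untreated mice had a median of -0.07 with 5 of 32 positive. These were Scn2a, a sodium channel of axons, which fell by 0.27 ± 0.07 from 272 to 315 CPM in untreated to 205 to 270 CPM in treated mice, and Kcnd2, a potassium channel of dendrites, which fell by 0.23 ± 0.06. Syn2, a synapsin of synaptic vesicles, was the 1 of 24 presynaptic genes that fell (0.17 ± 0.05 lower), and all treated mice, at 491 to 581 CPM, were below all untreated mice, at 587 to 626 CPM. Dlg3, a scaffold of the postsynaptic density, fell by 0.15 ± 0.04, 1 of 33 glutamate receptor and scaffold genes. Of 29 calcium signalling genes 2 fell, among them the calcium pump Atp2b1, and of 26 proteasome genes 2 fell, Psmc1 and Psmd2, each by 0.13 ± 0.03. Sst, the neuropeptide somatostatin of a class of interneurons, was raised by 0.26 ± 0.07, from 139 to 169.1 CPM to 165 to 218 CPM, 1 of 19 interneuron markers. Ribosomal protein genes gave 0 calls of 33, with 31 positive changes and a median of 0.06, and NTC had 32 positive changes with a median of 0.06. The count of lowered voltage-gated channel genes was 0 without the libraries rich in Ttr, without treated female 2 and without treated male 3, and 7 without treated male 4. The presynaptic count was 0 without the libraries rich in Ttr and without any 1 of treated female 1, female 2, female 3 or male 3 and untreated female 4 or male 3, and 3 without treated male 4 or untreated male 2.

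Developmental transcription factors pattern the embryo, and several of them are transcribed in the hippocampus of zQ175 mice. In untreated mice Hoxa2 was 6.61 and Pax2 4.34 higher in zQ175 than in WT on the log2 scale. Hoxa2, a homeobox gene of the hindbrain, was at 0.743 to 1.31 CPM (median 0.912) in untreated zQ175 mice, 0.412 to 0.758 CPM (median 0.570) in treated zQ175 mice and at most 0.0366 CPM in untreated WT mice. It fell by 0.78 ± 0.19 (adjusted p = 0.0152), with 7 of 8 treated mice below all untreated zQ175 mice, and all treated mice remained far above WT. Pax2, a paired-box gene of the kidney and midbrain, went from 3.45 to 14.1 CPM (median 11.4) to 4.68 to 7.0 CPM (median 5.64), against 0.203 to 0.779 CPM in WT. Its fall was 0.84 ± 0.21 (adjusted p = 0.018), and 7 untreated mice were above all treated mice while untreated male 2 was below them. NTC-treated mice had 4.89 to 11.6 CPM of Pax2 (median 7.88), which overlaps both groups. Hoxa2 and Pax2 were the 2 lowered of 15 tested members (13.3%, against 3.05% of all genes lowered). The list holds 32 genes, and the others were too low to test. Of the 15, 12 were called raised in untreated zQ175 over untreated WT mice. A gene such as Hoxa2 passes the filter on counts only through the zQ175 groups, so the 13.3% adds no support. The list median was -0.22 in this comparison and 1.45 between untreated zQ175 and WT mice, and both values use the same untreated zQ175 mice. The list median was also -0.30 for NTC against the same untreated mice, -0.28 for the pair in WT mice and -0.02 for the pair against NTC. Some members lie near 0 in WT mice, and 1 was at 0 in all treated ones. Their summed level did not fall there, with medians of 32.7 CPM in untreated and 33.7 CPM in treated WT mice. Against NTC neither passed (-0.45 with an adjusted p of 0.225 for Hoxa2 and -0.45 with 0.26 for Pax2). Skor1, another member, had 7.41 to 19.9 CPM in untreated and 7.32 to 11.9 CPM in treated mice and did not pass (-0.38 ± 0.17, adjusted p = 0.18). Hoxa2 was called and Pax2 was not (-0.83, adjusted p = 0.106) without the libraries rich in Ttr, and DESeq2 gave no adjusted p for either gene.

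The wider effect of the knock-in allele was described with a signature from mice that share no library with this comparison, the 1762 genes called between untreated zQ175 and untreated WT mice of the 2.6[8]10 regimen (11.1% of 15852). Of the 1761 tested here, 1109 (63%) had a change after the pair that was opposite in sign to the genotype difference, that is, toward WT, 500 of 739 genes that zQ175 raises and 609 of 1022 that it lowers. The median changes were small, -0.04 and 0.03, where the median over all tested genes was 0.02. Of all tested genes 54.99% had a positive change, so a rise of genes that zQ175 lowers is also the commoner direction over all genes. Called genes were 80 of the 1761 (4.54%, against 3.9% of all genes), 67 toward WT and 13 away. Among those toward WT were Rab9b, raised by 0.30 in zQ175 and lowered by 0.40 after the pair, and Rprm, a cell cycle regulator, lowered by 0.40 in zQ175 and raised by 0.50. In WT mice, which carry no genotype effect, the pair gave a change in that same direction for 1020 of the 1761 genes (57.9%), against their own untreated mice. The shares toward WT were 42.6% for NTC and 44.3% for HTT-10150, each against the same untreated mice, so these shares and the 63% have their reference in common and are given side by side only. Without the libraries rich in Ttr the share was 67%, and 10 signature genes were called, all toward WT.

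On a score that sets the mean of untreated WT mice at 0% and that of untreated zQ175 mice at 100%, single untreated zQ175 mice lay between 87.8% and 109.2% (median 99.5%). Treated zQ175 mice lay between 70.9% and 109.5% (median 83.7%), and 6 of 8 were below every untreated zQ175 mouse. The 2 others, male 4 at 109.5% and female 2 at 96.96%, are libraries rich in Ttr, and the third such treated library, female 1, was at 78.6%. NTC-treated zQ175 mice ranged from 89.9% to 126.3% and HTT-10150 mice from 88.6% to 157.9%, with 0 of 8 below every untreated mouse in either group. Untreated WT mice lay from -13.4% to 9.6% (median 2.69%) and WT mice given the pair from -31.0% to 32.4% (median -11.4%), so the median was lower after the pair in both genotypes.

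**Figure D4:**
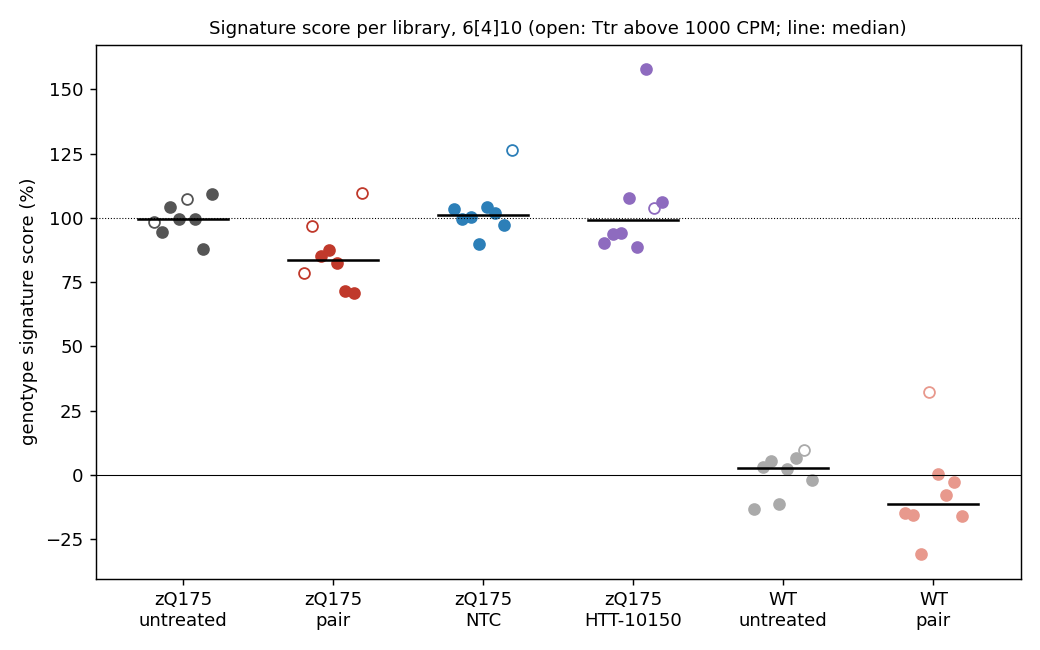
Signature score per mouse (y axis, percent of the distance between untreated WT, 0, and untreated zQ175, 100) in 6 groups of the 6[4]10 regimen (x axis), 1 point per mouse, open where Ttr was above 1000 CPM, with a line at the group median. Of 8 treated zQ175 mice, 6 lie below all 8 untreated zQ175 mice, and none comes near the WT mice.

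The same pair in WT mice gave 0 called genes (0%) by edgeR, with 1845 genes at an unadjusted p under 0.05, 0 by limma-voom and 9 by DESeq2. The genes called in zQ175 nevertheless mostly had the same sign in WT, 578 of 638 (90.6%, against 63.7% of all tested genes), with a median change of 0.11 for those raised in zQ175 and -0.07 for those lowered. Clec7a had a change of 1.43 in WT, Lyz2 of 0.91, C1qa of 0.40, C1qb of 0.41, Csf1r of -0.16 and 2610002M06Rik of -0.24 ± 0.07. Treated WT mice were spread widely, with Lyz2 at 4.93 to 16.3 CPM (median 13) against 4.56 to 8.77 CPM in untreated WT mice, and Clec7a at 0.363 to 2.61 CPM against 0.214 to 0.732 CPM. In 3 of the 8 treated WT mice Lyz2 was inside the range of untreated WT mice, and the 0 calls are over all 8; the reason for this spread was not tested. The difference between the genotypes, tested as an interaction, was called for 1 gene of 16374 (0.00611%), the growth hormone gene Gh, whose median was 0 CPM in untreated and treated zQ175 mice with a single untreated library at 14.2 CPM, with 960 genes at an unadjusted p under 0.05. The call in zQ175 and its absence in WT are therefore not shown to differ for any of the microglial, complement or lowered genes above.

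The NTC siRNA gave 0 called genes against untreated zQ175 mice (0%; 612 at an unadjusted p under 0.05 by edgeR, no other tool was run). Against NTC as the reference, the pair called 157 genes (0.959%), 45 raised and 112 lowered. Among them were Clec7a (1.46, adjusted p = 0.00974), Lyz2 (1.11, adjusted p = 0.015), C1qa (0.54, adjusted p = 0.0112), C1qb (0.43, adjusted p = 0.0184), Csf1r (-0.25, adjusted p = 0.011), 2610002M06Rik (-0.47, adjusted p = 2.46e-05) and 0610010F05Rik (-0.35, adjusted p = 2.46e-05). Of the 7 activated microglia genes called against untreated mice, Clec7a and Lag3 (0.66) were called against NTC. Cst7 (1.68, adjusted p = 0.075), Cd68 (0.38, adjusted p = 0.124), Cd9, Gpnmb and Apoe were not, and the list median was 0.26. Tyrobp (0.46, adjusted p = 0.0614), Ctss, Fcrls, Tgfbr1, H2-D1 and B2m were not called against NTC either. HTT-10150 called 14 genes against the untreated mice (0.0855%), with Cst7 (2.59), Lyz2 (1.18), C1qa (0.61), C1qb (0.53), Lag3 (0.70) and Ctss (0.38) raised and Clec7a (0.90, adjusted p = 0.348) and Csf1r (0.01, adjusted p = 0.967) not called. These comparisons share the treated or the untreated libraries with the main one, and the differences between the 2 agents were not tested.

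Mice of the other regimens share no library with this comparison. Against their own untreated zQ175 mice, treated zQ175 mice of 2[4]6 had the same sign for 609 of the 638 genes (95.5%, against 70.3% of all genes), and those of 2.6[8]10 for 614 (96.2%, against 67.2%). In all, 951 genes were called in 2[4]6 (5.72%) and 1023 in 2.6[8]10 (6.15%) in a fit of the 192 libraries. In 2[4]6, 155 of the 638 were called in the same direction and 0 in the opposite one (24.3%, against 5.79% called of all genes tested in both, and 16.4% of the 947 called there). In 2.6[8]10, 220 were called in the same direction and 0 in the opposite one (34.5%, against 6.2%, and 21.7% of the 1014 called there). Clec7a changed by 1.48 and 2.56, Lyz2 by 0.86 and 1.55, C1qa by 0.53 and 0.79, Csf1r by -0.24 and -0.28 and 2610002M06Rik by -0.29 and -0.60 in 2[4]6 and 2.6[8]10. In 2.6[8]10 Pax2 changed by -2.0 and Hoxa2 by -2.61. The test of the difference called 0 genes between 6[4]10 and 2[4]6 (0%; 789 at an unadjusted p under 0.05 by edgeR, 4 called by limma-voom), so no gene above is shown to change by a different amount. Between 6[4]10 and 2.6[8]10 it called 2 (0.012%; 844 at an unadjusted p under 0.05), the non-coding RNAs Rn7sk (7SK small nuclear RNA) and Gm42418.

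All 638 called genes had the same sign in both sexes, against 10356 of 16374 tested genes, although these libraries also made the calls. The interaction of treatment with sex called 0 of 15744 genes (0%) by edgeR, with 1242 at an unadjusted p under 0.05, while DESeq2 called 38.

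**Figure D5:**
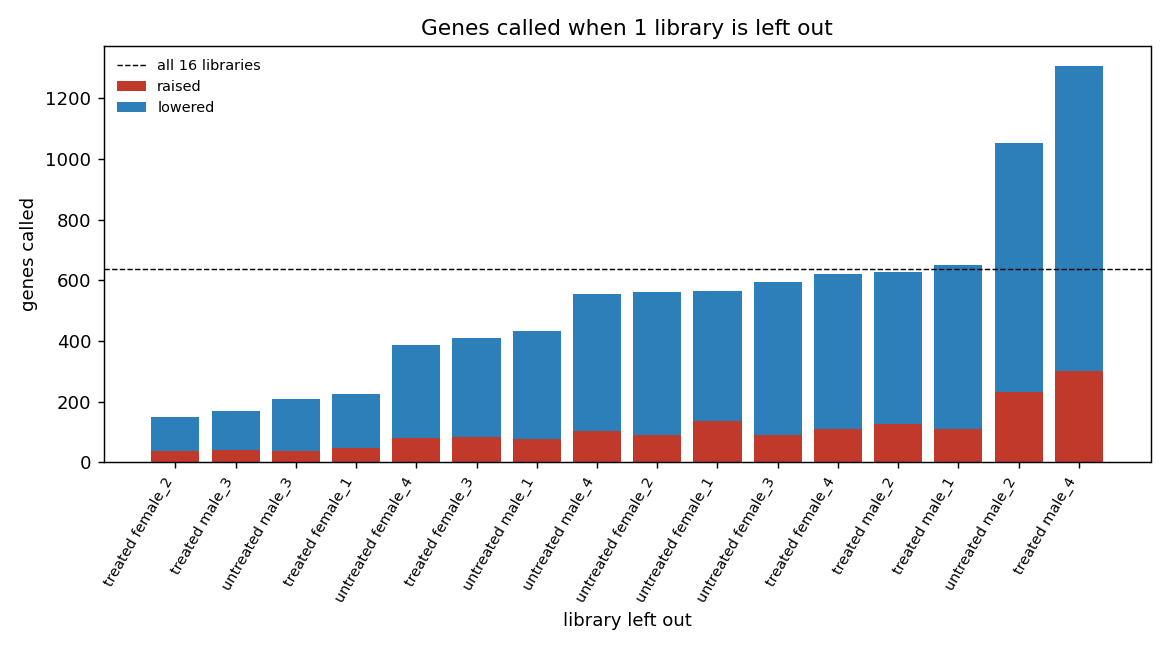
Number of genes called between treated and untreated zQ175 mice (y axis, raised and lowered stacked) when each of the 16 libraries is left out in turn (x axis), with the count of all 16 libraries, 638, as a dashed line. The share of tested genes called runs from 0.907% without treated female 2 to 7.95% without treated male 4.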

How the data were processed

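Total RNA of hippocampus was sequenced after polyA selection, 1 library per mouse. The deposited values are expected counts per gene, all of them whole numbers without normalization. RSEM and the GRCm38 build are named in the submitters' processing notes as used by the authors. Of 41135 features, 41128 carry a gene identifier, 40254 of which were named from GENCODE vM21, 874 kept their identifier, and 7 other features were left out of the tests.

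All 64 libraries of the regimen were fitted together (8 groups, sex as covariate) with TMM factors, filterByExpr by group and edgeR (version 4.0.16, R 4.3.3), using its quasi-likelihood test. Every adjusted p of a gene comes from this fit unless another tool is named, and regimens were compared in a fit of all 192 libraries. Levels are CPM with TMM factors, and log2 CPM used a prior count of 2. P-values set differences against the variation among mice treated alike, and the precision of each count is limited by the totals given with the libraries. Replicate labels were not taken to pair mice: of 8 same-numbered pairs, 6 had a correlation over 0.1 (mean 0.136, range -0.34 to 0.46), and 5 of the pairs share a library number.

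The genes named are Htt and the 10 most raised and 10 most lowered called genes with a mean of at least 1 log2 CPM and the same sign in both sexes. Up to 4 members per list were named by unadjusted p, and further members of the activated and resting microglia lists. Also named are genes called in the tests of a difference, examples from the signature, and genes said to be chosen after their values were seen. The comparison, the lists and the rules were chosen with earlier results of these data known. On simulated data of 16291 genes for this comparison, 78% of genes changed 1.25-fold, 90% changed 1.5-fold, 100% changed 2-fold and 94% changed 0.5-fold were called, with 8 unchanged genes called. The counts were drawn for each gene on its own, without differences shared by a whole library, and the changed genes had means over 1 CPM. The real libraries hold such shared differences, so these shares do not carry over to the calls made here or to genes at lower levels. Alternatives used DESeq2 1.42.0, limma 3.58.1, other scaling, filters, covariates and blocks, and left-out libraries. No library of the 16 went against its labelled sex, and 2 libraries of the other groups of the regimen did. A result for 1 gene is not reported here.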

Additional observations from a re-analysis of the deposited data

Results flagged for a closer look

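There were 72 tests for a library apart from its group of 8, and chance passes about 1 in 20 of such tests. They covered chosen genes, many of which vary together across libraries, so no excess can be read from the count that passed. Of the 72, 10 passed. In 6 of them the library was untreated zQ175 male 2, the lowest of its group: Htt at 128 CPM (the next lowest at 149.2), Pax2 at 3.45 CPM (7.68), Trpc5 at 9.35 CPM (14.2), Samd5 at 4.66 CPM (6.54), Klhl11 at 17.8 CPM (23.6) and Chrna7 at 11.4 CPM (15.9). Treated male 4 was the lowest treated library for C1qb at 39.9 CPM (the next at 50.1) and Gm12758 at 2.01 CPM (2.94). Treated female 1 was highest for Ighm at 26.6 CPM (the next at 10.1), and untreated male 3 was lowest for Col6a1 at 7.35 CPM (12).

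Gh differed between genotypes in its response to the pair by -15.41 ± 2.97 (edgeR adjusted p = 0.0414), with medians of 0 CPM in both zQ175 groups, 1 untreated zQ175 library at 14.2 CPM and 1 treated WT library at 23.3 CPM. The responses of Rn7sk and Gm42418 differed between 6[4]10 and 2.6[8]10 by 3.16 ± 0.65 (edgeR adjusted p = 0.0216) and 2.22 ± 0.38 (edgeR adjusted p = 0.000388). Within 6[4]10 their ranges overlapped, with Rn7sk at 0.262 to 1.02 CPM in untreated and 0 to 1.19 CPM in treated zQ175 mice, and Gm42418 at 30.1 to 41.2 and 31.2 to 47.8 CPM. The HD entry of Htt, which is outside the gene tests, had 9 reads in the treated and 41 in the untreated zQ175 group, and 0 in WT mice.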

How the results depend on the processing

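Of the genes tested, 3.9% (638) were called, and 3.54% with RLE factors, 3.79% without the sex covariate and 4.75% with limma-voom. The share was 1.22% without the filter on low counts (327 genes, over more genes tested), 6.36% with DESeq2, 6.68% with the 16 libraries alone (1052 genes), 2.23% with the library number as a block (360 genes) and 14.1% with the untreated zQ175 mice of both 10-month regimens as reference (2339 genes, 33.7% of them raised, against 21.8%). With a replicate block, although the numbers were not taken to pair mice, it was 6.05% (952 genes, 498 of them among the 638), and a mouse correlated best with its own number in 3 of 8 pairs. With that block the log2 change of Htt was -0.19 (exact sign flip p = 0.0312). After the data were seen, libraries above 1000 CPM of Ttr were left out (0.268%, 44 genes), the mean of choroid markers was added as a covariate (528 genes) and libraries against their labelled sex were left out (597 genes). Leaving out each library gave 0.907% to 7.95%. It was 0.907%, 1.38%, 1.02% and 2.5% without treated female 2, female 1, male 3 and female 3, 1.26% and 2.35% without untreated male 3 and female 4, 6.4% without untreated male 2 and 7.95% without treated male 4. The cause was not tested. Htt kept its direction in all of its alternatives, with -0.23 to -0.17 when 1 library was left out and -0.16 (exact permutation p = 0.0498) without the libraries rich in Ttr.

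In WT mice DESeq2 called 9 genes against 0. The interaction with genotype called 0 without the sex covariate, with limma-voom and without the libraries rich in Ttr, and 0 to 1 with 1 library left out. Treatment by sex called 38 with DESeq2, and limma-voom called 4 for the difference from 2[4]6 and 6 for that from 2.6[8]10. Over the 36 genes followed, 807 alternative values kept direction and call, 165 lost a call, 24 gained one and none changed direction. Lyz2, Clec7a, C1qa, C1qb, Aspg, Csf1r and 2610002M06Rik were called under each alternative that gave them an adjusted p (DESeq2 gave none for Clec7a and Aspg), while calls at the edge of the threshold (Col6a1, H2-D1, B2m, Klhl11, Ighm, Sema3a) were lost in 14 to 20. Depth limits genes near 1 CPM, such as Cst7.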

Other observations

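Libraries differed within groups in the same direction for many of the genes described above, and these values were noticed after the data were seen. In WT mice given the pair, Lyz2 was at 5.31 CPM in female 1, 4.93 CPM in female 3 and 5.66 CPM in male 1, inside the range of untreated WT mice (4.56 to 8.77 CPM), and above 10 CPM in the other 5. The same 3 mice had 0.363, 0.83 and 0.613 CPM of Clec7a, against 1.41 to 2.61 CPM in the other 5. Among treated zQ175 mice, male 4 had the lowest Clec7a (1.17 CPM), Cst7 (0.715 CPM), C1qa (50.2 CPM), C1qb (39.9 CPM) and Cd68 (6.50 CPM) and the highest Csf1r (92.3 CPM) and 2610002M06Rik (54.9 CPM). Among untreated zQ175 mice, male 2 had the highest Clec7a (0.923 CPM), Cst7 (0.777 CPM), Lyz2 (10.3 CPM), Tyrobp (10.4 CPM) and Cd68 (8.36 CPM) and the lowest Htt (128 CPM).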
